A study of Mus musculus with 12 samples.

Results

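The effect of an siRNA against Bmal1 was followed in mouse hepatic stellate cells that had received transforming growth factor beta (TGFb). The comparison took 6 of the series' 12 libraries by their titles: 3 from cells given the Bmal1 siRNA and TGFb, and 3 from cells given a scrambled siRNA and TGFb. All cells were EMS404, a stellate line of C57Bl6 origin that was immortalised with SV40 and carries human TLR4, so both groups share the viral immortalisation and the human receptor and come from 1 line. TGFb was added at 10 ng/mL for 24 h, starting 48 h after transfection. The other 6 libraries had the same siRNAs with vehicle in place of TGFb and are used here to ask whether an effect of the siRNA differed between the treatments. They were also part of the fit described below. Its filter and its estimate of the spread therefore rest on all 12 libraries, unless only the TGFb libraries are named. Expression is given as FPKM, fragments per kilobase of transcript relative to library size, and values are listed in the order of replicates 1, 2 and 3. Tests were made on log2(FPKM + 1), a scale that understates changes of low genes, in 1 limma fit over all genes. A gene is said to have risen or fallen where its Benjamini-Hochberg adjusted p was under 0.05. Differences are log2, Bmal1 siRNA minus scrambled siRNA.

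Bmal1 is a basic helix-loop-helix protein that binds DNA as a dimer with Clock, at E-box sequences, and switches on the Period, Cryptochrome and Rev-erb genes. The products of those genes then repress the dimer or the Bmal1 gene itself, which closes the loop of the circadian clock. TGFb acts through a receptor kinase that phosphorylates Smad2 and Smad3. With Smad4 these enter the nucleus and induce matrix genes, contractile genes and a set of inhibitors of the pathway. In injured liver this pathway turns the quiescent stellate cell into a myofibroblast.

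Within each TGFb group the libraries were not equally alike. Their FPKM totals ran from 445472 to 470107, with 13673 to 13832 genes above 0, and sequencing depth was not given. In a principal component analysis of all 12 libraries 71% of the variance fell on the first component. Scores there were -29.85, -27.25 and -27.16 with scrambled siRNA and TGFb, and -12.99, 5.13 and -8.4 with Bmal1 siRNA and TGFb. Vehicle scores ran from 15.42 to 17.76, so Bmal1 siRNA replicate 2 was the TGFb library nearest to them. In the scrambled group replicate 2 stood apart in the interferon response genes, described further on. Scrambled replicate 1 was the lowest of its group in 31 of 36 cytosolic ribosomal protein genes and 23 of 24 glycolysis and hypoxia genes. In 11 of 19 contractile genes it was the highest. All 6 TGFb libraries stay in the values that follow. Where the count or median of a gene list moved much without 1 TGFb library, that value is given as well for many lists, though not for all. List counts of 5 or fewer genes moved by at most 3 without single TGFb libraries unless another value is given. The series calls the triplicates biological, but no label ties them to separate cultures, so p-values measure the spread between these libraries.

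The identity of the line was checked on marker genes in the 6 TGFb libraries. Vimentin (Vim, 1008 to 1114 FPKM) and the stellate transcription factors Hand2 (77.1 to 117.5 FPKM) and Lhx2 (13.1 to 15.6 FPKM) were present. Desmin (Des) lay between 0.6 and 1.13 FPKM, Gfap did not pass 0.01 FPKM, Ngfr did not pass 0.19 FPKM and Tcf21 did not pass 0.13 FPKM, so several defining stellate markers were absent or nearly so. Markers of mesothelium were expressed, with Upk3b at 31.1 to 75.6 FPKM and Wt1 at 19.2 to 25.8 FPKM. Of 6 hepatocyte markers matched 3 did not pass 0.5 FPKM in any TGFb library, among them the defining factor Hnf4a (at most 0.01 FPKM). Their sum was 70.6 to 93.1 FPKM with scrambled and 61.7 to 116.5 FPKM with Bmal1 siRNA, nearly all from transferrin (Trf) and Ass1. Of 7 cholangiocyte and epithelial markers 3 did not pass 0.5 FPKM, among them Epcam and Cdh1, and the sum of 206.9 to 222.3 against 100.7 to 186.7 FPKM was mostly osteopontin (Spp1). Of 7 endothelial markers 5 did not pass 0.5 FPKM, with Pecam1 at most 0.13, and the sum was 5.5 to 7.1 against 6.8 to 10.1 FPKM. Of 7 leukocyte markers 4 did not, with Lyz2 at most 0.15, and the sum was 4.9 to 5.3 against 3.5 to 4.5 FPKM. In bulk RNA, fewer cells of a kind and less RNA per cell cannot be told apart.

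The targeted gene was lower in every library that had received its siRNA. Arntl, which encodes Bmal1 (ENSMUSG00000055116, GRCm38 chr7:113207465-113314126, plus strand), read 10.5, 10.8 and 10.9 FPKM with scrambled and 5.05, 4.01 and 4 FPKM with Bmal1 siRNA. The groups did not overlap, and scrambled vehicle cells held 5.43, 5.19 and 4.91 FPKM. The difference was log2 -1.13, SE 0.075, adjusted p = 1.38e-06. It kept its call in 24 of 24 alternative settings (other scalings, pseudocounts, filters and models, and left-out libraries). An exact two-sided permutation test of the 3 against 3 libraries gave p = 0.1, the smallest value this design allows. With vehicle the siRNA took Arntl to 3.9, 3.87 and 3.59 FPKM, and the fall was larger under TGFb (log2 difference of the effects -0.77, adjusted p = 0.000526).

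Over all 11208 genes tested, 2596 (23.2%) passed the threshold, 1794 (16%) higher and 802 (7.16%) lower with the Bmal1 siRNA. The median difference over all genes was 0.06. The shares of 16% higher and 7.16% lower and this median are the background for each gene list below. All 3 Bmal1 siRNA libraries lay above the scrambled ones for 28.1% of the genes and below them for 11%. Those 2 shares are the background wherever the groups of a gene are said to be separate. Large changes were mostly falls: 89 genes were lower and 30 higher by at least 2-fold, together 1.06% of the genes. The split between higher and lower calls depended on scaling. With median-of-ratios scaling 972 genes were higher and 1195 lower, so the share of higher calls went from 69.1% to 44.9%. Counts with that scaling therefore stand beside those of the metabolic and cell cycle lists. For most lists with mainly falls they are not given. There the scaling could add falls, as in the contractile list with 12 lower in place of 9, or leave the count, as in the interferon list with 26.

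Of 17 tested genes of the core clock loop none rose and 6 fell, with a median of -0.13. At an unadjusted p under 0.05 they numbered 7 lower and 2 higher in limma. Apart from Arntl, the clearest falls were in the Dec repressors, which compete for E-boxes. Bhlhe40 (Dec1; ENSMUSG00000030103, GRCm38 chr6:108660629-108666925, plus strand) read 45.5, 55.9 and 55.9 FPKM with scrambled and 20.1, 24.9 and 19.9 FPKM with Bmal1 siRNA (log2 -1.24, SE 0.14, adjusted p = 6.77e-05). Its paralogue Bhlhe41 (Dec2) read 0.91, 1.23 and 1.46 FPKM with scrambled and 0.37, 0.57 and 0.38 FPKM with Bmal1 siRNA (log2 -0.61, SE 0.1, adjusted p = 0.00121). Neither gene's groups overlapped, and the effect of the siRNA on both differed from that with vehicle, by -1.78 for Bhlhe40 and -0.93 for Bhlhe41.

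The smaller falls in the loop were less stable. Ciart, a repressor of the Clock and Bmal1 dimer, read 10.8, 14.6 and 12.2 FPKM with scrambled and 9.15, 9.49 and 8.68 FPKM with Bmal1 siRNA (log2 -0.41, SE 0.13, adjusted p = 0.0332). Nr1d1, the Rev-erb alpha gene, read 8.56, 8.17 and 8.4 FPKM with scrambled and 7.24, 5.17 and 7.12 FPKM with Bmal1 siRNA (log2 -0.33, SE 0.097, adjusted p = 0.0257), and it shares 263 exon bases with Thra. Both groups of libraries were separate for each gene, but Ciart lost its call in 7 of 24 settings and Nr1d1 in 6. Without any 1 TGFb library other than scrambled replicate 1 Ciart was not called (adjusted p 0.0518 to 0.122), and without scrambled replicate 2 it differed by -0.30. Nr1d1 lost its call without Bmal1 siRNA TGFb replicate 2 (-0.20, adjusted p = 0.0704) and when replicate 1 or 3 of the scrambled TGFb group was left out (adjusted p 0.0697 and 0.0665). The kinase gene Csnk1e differed by -0.19 (adjusted p = 0.0294), and without any 1 of the scrambled libraries or Bmal1 siRNA replicate 2 its adjusted p was 0.059 to 0.102. Leaving out Bmal1 siRNA TGFb replicate 2 or scrambled TGFb replicate 3 left 3 core clock genes lower, and without scrambled TGFb replicate 1 the median was -0.08.

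The Period and Cryptochrome genes, classical targets of the Bmal1 dimer, did not pass the threshold. Per1 read 12.3, 12.6 and 13.2 FPKM with scrambled and 11.9, 12 and 12.7 FPKM with Bmal1 siRNA, Per2 2.46, 2.53 and 2.53 against 2.55, 2.92 and 2.55 FPKM and Cry1 6.77, 6.63 and 6.61 against 7.63, 6.74 and 7.64 FPKM. Their differences were -0.06, 0.07 and 0.12, with standard errors of 0.049, 0.07 and 0.06. Per3 differed by 0.16, Cry2 by 0.18 and Clock, the partner of Bmal1, by -0.22 (adjusted p = 0.0881). Nr1d2, the second Rev-erb gene, read 8.15, 7.03 and 7.07 FPKM with scrambled and 6.84, 5.74 and 6.67 FPKM with Bmal1 siRNA (-0.18, adjusted p = 0.181), whereas with vehicle it fell by 0.48; the difference between those effects did not pass the threshold (adjusted p = 0.162).

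**Figure D1:**
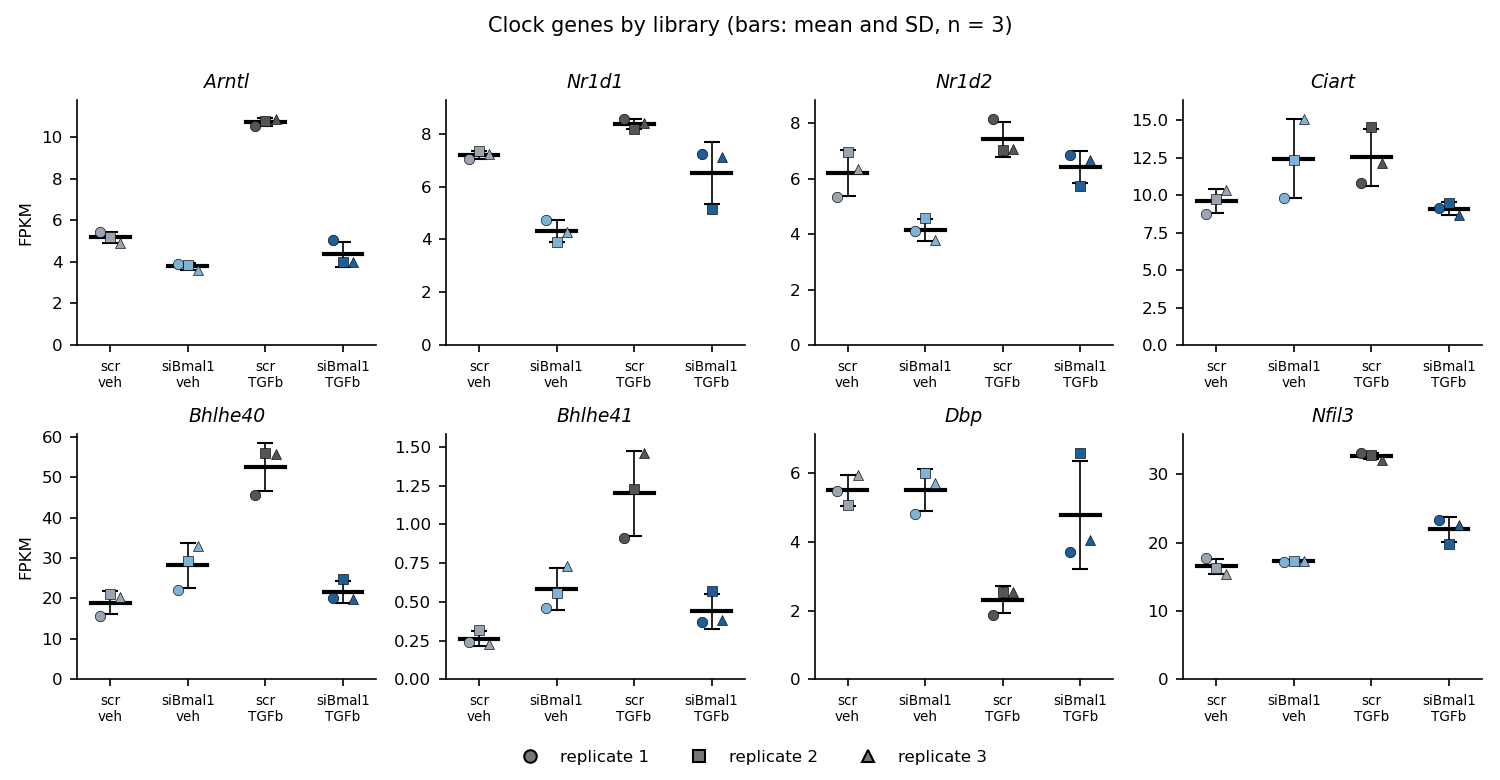
FPKM of 8 clock genes in each of the 12 libraries, grouped by siRNA and treatment; symbols stand for replicates 1 to 3, bars for the mean and error bars for the SD (n = 3). Under TGFb the Bmal1 siRNA libraries lie below all scrambled ones for Arntl, Nr1d1, Nr1d2, Ciart, Bhlhe40, Bhlhe41 and Nfil3 and above them for Dbp.

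Clock output genes went both ways: of 12 tested, 4 rose and 2 fell, with a median of 0.16 (0.07 without Bmal1 siRNA TGFb replicate 2). Dbp, a D-box activator that is itself an E-box target, read 1.87, 2.55 and 2.54 FPKM with scrambled and 3.71, 6.58 and 4.05 FPKM with Bmal1 siRNA (log2 0.77, SE 0.15, adjusted p = 0.00313), and it shares 539 exon bases with Sphk2. Nfil3, the repressor that competes with Dbp at D-boxes, read 33.1, 32.8 and 32.1 FPKM with scrambled and 23.3, 19.8 and 22.6 FPKM with Bmal1 siRNA (log2 -0.56, SE 0.062, adjusted p = 5.56e-05). Every Bmal1 siRNA library was above the scrambled ones for Dbp, as for 28.1% of all tested genes, and below them for Nfil3, as for 11%. Pim3, a kinase gene, rose by 0.37 (adjusted p = 0.00356) and Wee1, the mitotic inhibitor kinase, by 0.21 (adjusted p = 0.0103; 0.0645 with median-of-ratios scaling). Cdkn1a, the CDK inhibitor p21, read 38.3, 42.5 and 41 FPKM with scrambled and 29.9, 17.1 and 29.8 FPKM with Bmal1 siRNA, a difference of -0.69 that became -0.43 without Bmal1 siRNA TGFb replicate 2.

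The E-box CACGTG, a palindrome, was searched in the 250 bases before the start of each gene in RefSeq promoters (GRCm38.p6), which were at hand for 8939 of the tested genes. It occurred in 10.1% of these, in 11.9% of the 1426 genes that rose and in 10.3% of the 594 that fell with a promoter at hand. Of 12 core clock genes with a promoter, 4 held it. The sequences below, written 5' to 3' on the gene's strand with E-boxes in capitals, are shown because they set 2 clock genes that fell (Ciart, chr3:95882229-95882478, minus strand; Bhlhe41, chr6:145865421-145865670, minus strand) beside an output gene that rose (Tspan4, chr7:141476130-141476379, plus strand) and a clock gene without a call (Cry1, chr10:85185055-85185304, minus strand).
Ciart: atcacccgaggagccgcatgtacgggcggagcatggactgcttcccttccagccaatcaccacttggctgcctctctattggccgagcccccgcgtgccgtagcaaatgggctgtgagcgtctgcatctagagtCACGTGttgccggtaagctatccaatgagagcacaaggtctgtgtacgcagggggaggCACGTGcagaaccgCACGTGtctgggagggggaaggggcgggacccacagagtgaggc
Bhlhe41: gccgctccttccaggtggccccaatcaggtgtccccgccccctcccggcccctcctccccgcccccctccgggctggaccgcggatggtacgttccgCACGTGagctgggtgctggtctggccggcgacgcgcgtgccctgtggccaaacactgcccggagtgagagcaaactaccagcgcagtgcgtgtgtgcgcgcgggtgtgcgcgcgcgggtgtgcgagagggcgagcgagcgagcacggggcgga
Tspan4: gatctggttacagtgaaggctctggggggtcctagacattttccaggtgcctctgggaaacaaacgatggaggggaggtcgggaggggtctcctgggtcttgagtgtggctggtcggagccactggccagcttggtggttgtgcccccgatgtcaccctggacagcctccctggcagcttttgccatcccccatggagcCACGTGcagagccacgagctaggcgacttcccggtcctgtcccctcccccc
Cry1: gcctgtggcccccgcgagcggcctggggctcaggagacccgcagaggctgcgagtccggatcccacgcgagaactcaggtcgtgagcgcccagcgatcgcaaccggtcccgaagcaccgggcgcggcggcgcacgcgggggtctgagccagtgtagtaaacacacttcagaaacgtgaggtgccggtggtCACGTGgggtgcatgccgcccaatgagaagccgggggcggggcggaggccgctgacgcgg
In Ciart the 3 matches began 116, 58 and 44 bases before the start, in Bhlhe41 1 began at 153, in Tspan4 1 at 51 and in Cry1 1 at 60. Tspan4, a tetraspanin gene that shares 292 exon bases with Chid1, rose by 0.28 (adjusted p = 0.0135; 0.24, adjusted p = 0.0541, without scrambled TGFb replicate 1). Genes with the E-box in this window thus include ones that fell, rose and had no call; a match is a description of the letters and not of binding.

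The largest changes with the Bmal1 siRNA were sought among called genes whose groups did not overlap, so the separation of the groups in them is fixed by the choice. The 20 largest falls ran from -2.32 to -1.60 and the 20 largest rises from 1.09 to 1.91. With vehicle none of these 40 passed the threshold in limma, and their differences there lay between -0.33 and 0.70. The effect differed between the treatments for 18 of the 20 falls (not Zbp1 and Ctsw) and 18 of the 20 rises (not Dcn and Lbp).

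The largest fall was in Pmepa1, a membrane protein that sequesters Smad2 and Smad3 (ENSMUSG00000038400, GRCm38 chr2:173224458-173276533, minus strand), at 166, 149 and 156 FPKM with scrambled and 42.8, 19.2 and 34.9 FPKM with Bmal1 siRNA (log2 -2.32, SE 0.19, adjusted p = 5.74e-06); vehicle libraries held 14.97 to 16.18 FPKM. Keratin 14, Krt14, read 132, 170 and 144 FPKM with scrambled and 43.2, 26.8 and 45.9 FPKM with Bmal1 siRNA and the desmosome gene Pkp1 6.5, 6.67 and 7.86 against 1.49, 0.48 and 1.53 FPKM. Runx1, a transcription factor, read 38.8, 36.2 and 40.3 FPKM with scrambled and 13.3, 8.56 and 12.7 FPKM with Bmal1 siRNA. Bmal1 siRNA replicate 2 was the lowest library in all 4 genes. Other falls of this size were in Mfap4 (-1.81), a microfibril protein that shares 89 exon bases with Mapk7, Crispld2 and Trabd2b (-1.76 each), and the 5'-nucleotidase Nt5e (-1.65). A further 8 of the 20 were interferon response genes.

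Among the rises, Ptn, the secreted growth factor pleiotrophin (ENSMUSG00000029838, GRCm38 chr6:36714929-36810220, minus strand), read 3.95, 4.6 and 4.85 FPKM with scrambled and 10.7, 40.3 and 16.9 FPKM with Bmal1 siRNA (log2 1.91, SE 0.31, adjusted p = 0.000846), and without Bmal1 siRNA TGFb replicate 2 its difference was 1.41. The neutrophil chemokine Cxcl1 read 2.25, 2.31 and 2.1 FPKM with scrambled and 7.06, 11.6 and 9.39 FPKM with Bmal1 siRNA. Matrix Gla protein, Mgp, read 2.67, 4.52 and 3.54 FPKM with scrambled and 7.38, 23.5 and 12.1 FPKM with Bmal1 siRNA and the proteoglycan decorin, Dcn, 46.6, 73.3 and 68.6 against 97.2, 297 and 153 FPKM. Bmal1 siRNA replicate 2 was the highest library in each of these. That library was the farthest from the scrambled group in 20 of 20 rises and 13 of 20 falls. Without it all 40 genes kept their calls, with rises of 0.79 to 1.51 and falls of -2.01 to -1.02. Of the falls, Zbp1 went from -1.63 to -0.97 without scrambled TGFb replicate 2.

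**Figure D2:**
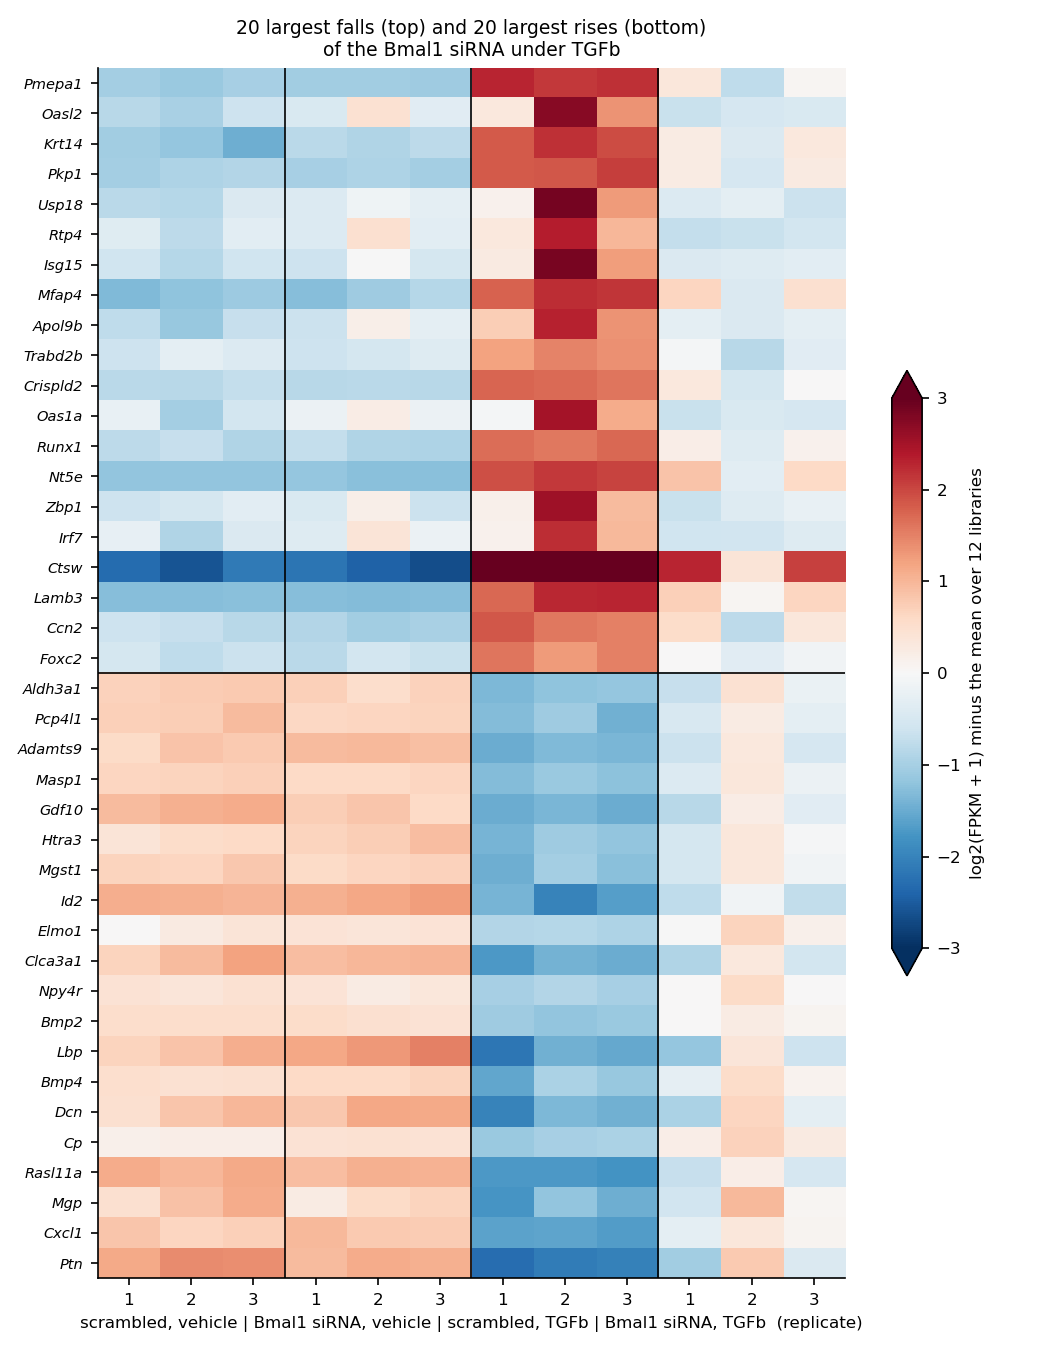
Heat map of the 20 largest rises and 20 largest falls under TGFb, one row per gene and one column per library, coloured by log2(FPKM + 1) minus the gene's mean over the 12 libraries. The genes were chosen for separate TGFb groups, and Bmal1 siRNA replicate 2 is the farthest from the scrambled TGFb columns in 20 of 20 rises.

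Genes of the TGFb pathway were taken by role. Of 11 receptors and Smads, 3 rose and 1 fell, with a median of 0.11 (0.06 without scrambled TGFb replicate 1 and 0.01 without Bmal1 siRNA TGFb replicate 2). The co-receptor betaglycan, Tgfbr3, read 3.25, 3.53 and 3.06 FPKM with scrambled and 6.38, 8.99 and 5.65 FPKM with Bmal1 siRNA (log2 0.88, SE 0.12, adjusted p = 0.000188), and Smad3, the main DNA-binding signal carrier, 15.5, 14.5 and 14.9 against 19.1, 19.8 and 17.6 FPKM (log2 0.31, adjusted p = 0.00109). Endoglin, Eng, fell by 0.29 (adjusted p = 0.0014) and shares 61 exon bases with Fpgs. The type I receptor gene Tgfbr1 differed by 0.24 (adjusted p = 0.0357) and lost that call in 11 settings, among them the removal of any 1 of the 6 TGFb libraries (adjusted p 0.0505 to 0.093).

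Ligands and the proteins that hold them latent went down: of 10 tested, 6 fell and none rose, with a median of -0.51. Ltbp2, a latent TGFb binding protein of microfibrils, read 43.2, 36.3 and 41.5 FPKM with scrambled and 20, 10.8 and 17 FPKM with Bmal1 siRNA. Lrrc32, the cell-surface anchor of latent TGFb also called Garp, read 2.3, 2.94 and 3.38 FPKM with scrambled and 0.87, 0.75 and 0.69 FPKM with Bmal1 siRNA, and Inhba, the activin A subunit, 10.5, 9.59 and 9.4 against 6.41, 3.72 and 5.25 FPKM. None of these overlapped between groups, with the Bmal1 siRNA libraries below as for 11% of all tested genes. Fstl3, an activin trap that shares 1157 exon bases with Prss57, fell by 1.11 and Ltbp3 by 0.60. Tgfb1 itself, one of the ligand genes, read 69.5, 73 and 73.2 FPKM with scrambled and 54.9, 50.8 and 54.2 FPKM with Bmal1 siRNA (log2 -0.43, SE 0.044, adjusted p = 3.28e-05).

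The inhibitors that the pathway induces against itself were lower in 7 of 13 and higher in none, with a median of -0.37. Beside Pmepa1 these included Smad7, which blocks the receptor, at 9.61, 9.4 and 8.75 FPKM with scrambled and 4.11, 4.09 and 4.51 FPKM with Bmal1 siRNA (log2 -0.97, SE 0.08, adjusted p = 5.74e-06). Skil, the Smad co-repressor SnoN, read 9.93, 10 and 9.63 FPKM with scrambled and 4.71, 3.43 and 4.61 FPKM with Bmal1 siRNA and Ski 53.7, 50.9 and 52.7 against 38.5, 34.4 and 37.5 FPKM. In each gene the 3 Bmal1 siRNA libraries lay below all 3 scrambled ones. Ldlrad4, which binds Smad2 and Smad3, fell by 1.31 and shares 2798 exon bases with Fam210a.

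Of 16 other genes known to respond early to TGFb, 12 fell and 1 rose, with a median of -0.69. Junb, an AP-1 subunit (ENSMUSG00000052837, GRCm38 chr8:84974484-84978718, minus strand), read 134, 139 and 149 FPKM with scrambled and 49.4, 46.8 and 45.8 FPKM with Bmal1 siRNA (log2 -1.55, SE 0.057, adjusted p = 9.44e-09), beside means of 50.2 and 49.2 FPKM in the scrambled and Bmal1 siRNA vehicle groups; Junb shares 173 exon bases with Prdx2. Ccn2, connective tissue growth factor, read 134, 111 and 105 FPKM with scrambled and 54, 20.8 and 45.8 FPKM with Bmal1 siRNA. Snai1, the EMT factor Snail, read 128, 120 and 125 FPKM with scrambled and 52.8, 37.6 and 49.9 FPKM with Bmal1 siRNA and Pdgfb, a mitogen for stellate cells, 39.3, 42.5 and 40.1 against 13.1, 10.9 and 15.3 FPKM. No Bmal1 siRNA library reached the lowest scrambled one for Junb, Snai1 or Pdgfb, a pattern that 11% of all tested genes showed. The 1 rise was in Angptl4, an inhibitor of lipoprotein lipase, by 0.48 (adjusted p = 0.00737).

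Of 14 ligands, receptors and antagonists of the bone morphogenetic proteins, the other arm of the ligand family, 3 rose and 3 fell, with a median of 0.07 beside 0.06 over all genes. The 3 rises were all in ligand genes, and all 3 are among the 20 largest rises. Bmp2 (ENSMUSG00000027358, GRCm38 chr2:133552159-133562885, plus strand) read 5.25, 4.7 and 5.01 FPKM with scrambled and 12.1, 14.4 and 12.8 FPKM with Bmal1 siRNA (log2 1.23, SE 0.064, adjusted p = 2.56e-07). Bmp4, which shares 89 exon bases with Gm15217, read 10.3, 16.3 and 14.2 FPKM with scrambled and 26.8, 47.9 and 35 FPKM with Bmal1 siRNA, and Gdf10 0.09, 0.18 and 0.09 against 0.72, 2.55 and 1.42 FPKM. Of 3 tested Id genes 1 rose, Id2, and none fell, with a median of 0.50. Without Bmal1 siRNA TGFb replicate 2 that median was 0.18, and 1 Id gene was higher and 1 lower. Id2, a dominant-negative helix-loop-helix protein that BMPs induce and TGFb lowers, read 2.02, 1 and 1.54 FPKM with scrambled and 3.69, 6.41 and 3.8 FPKM with Bmal1 siRNA (log2 1.15, SE 0.16, adjusted p = 0.000348), with 15.6 and 16.9 FPKM as the means of the scrambled and Bmal1 siRNA vehicle groups. Fstl1, a secreted glycoprotein, went the other way, at 194, 227 and 220 FPKM with scrambled and 139, 115 and 135 FPKM with Bmal1 siRNA.

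**Figure D3:**
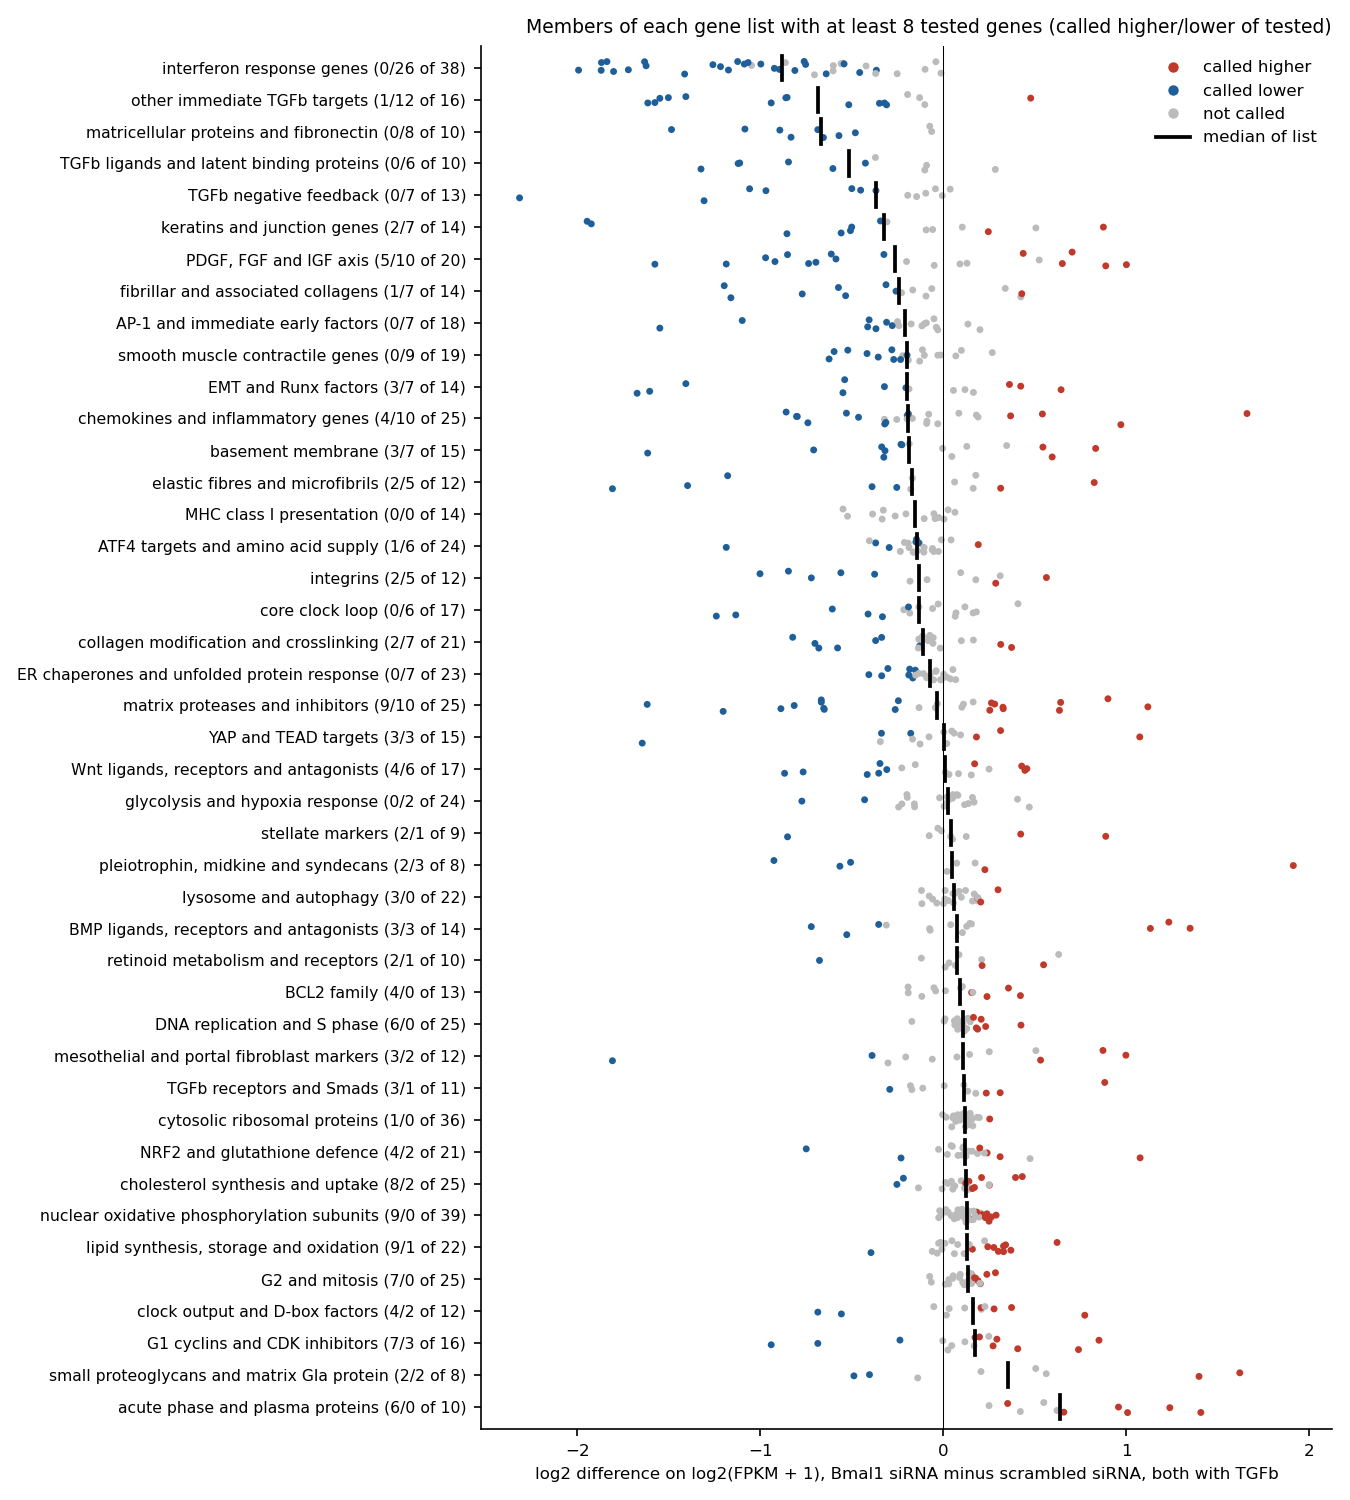
Differences (log2, Bmal1 siRNA minus scrambled siRNA under TGFb) of the members of each gene list with at least 8 tested genes, one point per gene, with called genes marked and the list's median as a bar. The medians of the interferon, other immediate TGFb target, matricellular and TGFb ligand lists lie between -0.88 and -0.51, and that of the acute phase list at 0.64.

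In the extracellular matrix the fall was uneven. Of 14 fibrillar and associated collagen genes 7 fell and 1 rose, with a median of -0.24. Col6a3 read 2.9, 3.36 and 3.99 FPKM with scrambled and 1.08, 0.65 and 1.05 FPKM with Bmal1 siRNA, Col8a2 30.6, 35.7 and 33.8 against 15.3, 12.8 and 15 FPKM and Col5a1 234, 220 and 235 against 156, 110 and 140 FPKM, with no overlap. The major fibrillar collagen Col1a1, named here after its values were seen, read 4051, 4116 and 4222 FPKM with scrambled and 3567, 3197 and 3607 FPKM with Bmal1 siRNA, a small difference of -0.26 (adjusted p = 0.0101). Col6a2, another chain of the same collagen type as Col6a3, rose by 0.43 (adjusted p = 0.0156), a call that was lost without scrambled TGFb replicate 1. Basement membrane genes fell in 7 of 15 and rose in 3, with a median of -0.19 (-0.12 without scrambled TGFb replicate 1). The laminin chain Lamb3 fell by 1.62 and nidogen 2, Nid2, which shares 437 exon bases with Rtraf, rose by 0.83, or by 0.54 without Bmal1 siRNA TGFb replicate 2; with only the 6 TGFb libraries in the fit it lost its call (adjusted p = 0.0543).

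Matricellular proteins, which sit in the matrix and signal to cells, fell in 8 of 10 and rose in none, with a median of -0.67. Periostin, Postn, read 34.5, 36.1 and 38.5 FPKM with scrambled and 21.3, 10.4 and 20.6 FPKM with Bmal1 siRNA and Ccn5 8.47, 9.31 and 9.92 against 2.79, 1.63 and 3.87 FPKM. Of 12 genes of elastic fibres and microfibrils 5 fell and 2 rose (median -0.17). Fibrillin 1, Fbn1, read 11.8, 13.5 and 12.8 FPKM with scrambled and 4.87, 3 and 4.98 FPKM with Bmal1 siRNA and shares 2442 exon bases with Gm9913. Among 21 enzymes that modify and cross-link collagen 7 fell and 2 rose (median -0.11), or 4 fell without scrambled TGFb replicate 2 (median -0.07). Lysyl oxidase, Lox, read 411, 410 and 394 FPKM with scrambled and 281, 230 and 248 FPKM with Bmal1 siRNA (log2 -0.68, SE 0.078, adjusted p = 6.81e-05). For these 4 genes the groups stood apart. Small proteoglycans split: Dcn and Mgp rose, while biglycan, Bgn, fell by 0.40 and fibromodulin, Fmod, by 0.49, with a median of 0.36 over 8 genes. That median was 0.16 without Bmal1 siRNA TGFb replicate 2 and 0.57 without replicate 1, where 5 rose.

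Proteases and their inhibitors moved in both directions, 9 of 25 higher and 10 lower, with a median of -0.03. Mmp2, the gelatinase of activated stellate cells, read 48.2, 60.3 and 57.6 FPKM with scrambled and 25.4, 19.6 and 25.7 FPKM with Bmal1 siRNA (log2 -1.20, SE 0.1, adjusted p = 6.94e-06). Plat, tissue plasminogen activator, read 11.1, 10.6 and 11.9 FPKM with scrambled and 19.5, 26.1 and 20.2 FPKM with Bmal1 siRNA (log2 0.90, SE 0.085, adjusted p = 1.53e-05). The versican-cleaving protease gene Adamts9 rose by 1.12 and shares 1381 exon bases with A730049H05Rik. Cathepsin W, Ctsw, read 60.6, 60.4 and 60.3 FPKM with scrambled and 31.9, 7.77 and 26.8 FPKM with Bmal1 siRNA; without Bmal1 siRNA TGFb replicate 2 its difference went from -1.62 to -1.02.

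Contractile genes of the myofibroblast fell in 9 of 19 and rose in none, with a median of -0.20. Smooth muscle actin, Acta2, read 239, 240 and 241 FPKM with scrambled and 185, 114 and 188 FPKM with Bmal1 siRNA (log2 -0.60, SE 0.14, adjusted p = 0.00878). Transgelin, Tagln, read 134, 126 and 128 FPKM with scrambled and 100, 56 and 104 FPKM with Bmal1 siRNA (log2 -0.62, SE 0.18, adjusted p = 0.0227) and shares 108 exon bases with Pcsk7. In both genes the groups were separate and Bmal1 siRNA replicate 2 was the lowest library; without it the differences were -0.36 for Acta2 and -0.34 for Tagln, and 7 contractile genes were lower (median -0.13). With only the 6 TGFb libraries in the fit both calls were lost (adjusted p 0.0574 for Acta2 and 0.0834 for Tagln). Tagln lost its call without scrambled TGFb replicate 1 (adjusted p = 0.0612) or 3 (adjusted p = 0.0575). Non-muscle myosin, Myh9, fell by 0.52 (adjusted p = 4.41e-05).

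Of 12 integrin genes 5 fell and 2 rose, with a median of -0.13 (-0.09 without scrambled TGFb replicate 2). Itgb3, a subunit of receptors for RGD ligands, read 8.88, 9.14 and 9.38 FPKM with scrambled and 4.81, 3.53 and 3.92 FPKM with Bmal1 siRNA, and Itgb5 and Itga5 fell by 0.85 and 0.72. Itgb8, whose integrin releases active TGFb from its latent form, rose, at 0.25, 0.18 and 0.29 FPKM with scrambled and 0.86, 0.9 and 0.74 FPKM with Bmal1 siRNA (log2 0.56, SE 0.076, adjusted p = 0.000236). The EMT and Runx factor list held 7 falls and 3 rises among 14 genes (median -0.20; -0.08 without Bmal1 siRNA TGFb replicate 2 and -0.30 without replicate 1), with Foxc2, a forkhead factor, at 6.19, 4.76 and 5.78 FPKM with scrambled and 1.39, 0.88 and 1.22 FPKM with Bmal1 siRNA. Keratin and junction genes fell in 7 of 14 and rose in 2 (median -0.33). Against the falls of Krt14 and Pkp1, the tight junction gene Cldn1 rose, at 0.34, 0.44 and 0.33 FPKM with scrambled and 1.02, 1.95 and 1.66 FPKM with Bmal1 siRNA. The groups of Cldn1 were separate. Of 18 AP-1 and immediate early genes 7 fell and none rose (median -0.21; -0.13 without Bmal1 siRNA TGFb replicate 2), Egr2 by 1.10. Of 15 YAP and TEAD targets 3 rose and 3 fell (median 0.00), with the caveolar gene Cavin2 higher by 1.07.

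Growth factor genes changed within families. In the PDGF, FGF and IGF list 10 of 20 fell and 5 rose (median -0.26). The receptor Pdgfrb fell, at 30.9, 28.6 and 29.5 FPKM with scrambled and 17.9, 14.8 and 15.4 FPKM with Bmal1 siRNA (log2 -0.85, SE 0.066, adjusted p = 3.21e-06), while Pdgfra, the receptor of quiescent fibroblasts, rose, at 11.1, 10.7 and 11.2 FPKM with scrambled and 17.1, 31.3 and 17.7 FPKM with Bmal1 siRNA (log2 0.89, SE 0.17, adjusted p = 0.00238). Neither pair of groups overlapped. Fgf21, an endocrine factor of the stress response, fell by 1.19. The epithelial mitogen Fgf7 rose, at 1.51, 1.3 and 1.4 FPKM with scrambled and 3.97, 3.77 and 3.69 FPKM with Bmal1 siRNA. Of 17 Wnt pathway genes 6 fell and 4 rose (median 0.01), or 1 rose without scrambled TGFb replicate 3. The ligand gene Wnt11 fell by 0.87 and the transcription factor gene Lef1 by 0.77.

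Interferon response genes formed the list with the lowest median, -0.88: of 38 tested 26 fell and none rose. Isg15, a ubiquitin-like modifier of the antiviral response (ENSMUSG00000035692, GRCm38 chr4:156199424-156200818, minus strand), read 15.8, 99.1 and 32.2 FPKM with scrambled and 9.3, 9.63 and 10.1 FPKM with Bmal1 siRNA (log2 -1.84, SE 0.43, adjusted p = 0.00922). Oasl2 read 16.3, 91.4 and 34.4 FPKM with scrambled and 7.84, 8.92 and 9.23 FPKM with Bmal1 siRNA and Usp18, the protease that removes Isg15, 1.75, 17.3 and 5.06 against 0.89, 1.05 and 0.61 FPKM. Scrambled replicate 2 was several times the other scrambled libraries in all 3 genes. Over the list, scrambled replicate 2 was the highest and replicate 1 the lowest of the scrambled libraries in 38 of 38 genes. The median FPKM of the list was 4.77, 16.3 and 8.31 with scrambled and 3.63, 4.02 and 3.52 with Bmal1 siRNA, and for 25 of 38 genes the Bmal1 siRNA libraries were all below the scrambled ones, as for 11% of all genes tested. Without scrambled TGFb replicate 2, only 36 of the 38 genes reached the filter on mean FPKM. The rest were tested only because that library was high in them. Among the 36, 18 were lower and the median was -0.52. Isg15 then differed by -1.14, Usp18 by -1.15 and Oasl2 by -1.36. With only the 6 TGFb libraries in the fit Isg15 and Usp18 lost their calls (adjusted p 0.058 and 0.0664). Of 14 genes of MHC class I presentation none passed the threshold (median -0.15; 3 at an unadjusted p under 0.05), and their summed FPKM was likewise highest in scrambled replicate 2. Without this library 13 of the 14 genes reached the filter, and the median of that list was -0.04. It was -0.33 with 5 genes lower without scrambled TGFb replicate 1, and -0.24 without Bmal1 siRNA TGFb replicate 2.

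The interferon motif GAAANNGAA was searched on both strands in the same 250 bases. It was present in 14 of 29 interferon list genes with a promoter (48.3%), in 7.26% of all tested genes, in 9.09% of the genes that fell and in 6.94% of those that rose. The Isg15 promoter (chr4:156200819-156201068, minus strand, GRCm38.p6) is shown because it held 3 matches that overlap in a row, in capitals, beginning 78, 72 and 66 bases before the start.
Isg15: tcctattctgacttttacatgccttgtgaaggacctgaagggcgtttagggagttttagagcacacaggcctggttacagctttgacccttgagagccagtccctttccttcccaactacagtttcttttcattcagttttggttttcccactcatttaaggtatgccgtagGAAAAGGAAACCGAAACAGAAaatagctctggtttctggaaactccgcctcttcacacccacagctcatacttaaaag

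Acute phase and plasma protein genes were the list with the highest median, 0.64: 6 of 10 rose and none fell. Ceruloplasmin, Cp, a copper-carrying ferroxidase that shares 108 exon bases with Hps3, read 1.41, 1.62 and 1.71 FPKM with scrambled and 4.98, 7.44 and 5.34 FPKM with Bmal1 siRNA (log2 1.41, SE 0.1, adjusted p = 2.1e-06). Haptoglobin, Hp, read 0.14, 0.11 and 0.17 FPKM with scrambled and 0.61, 2.72 and 1.01 FPKM with Bmal1 siRNA and Lbp, which transfers lipopolysaccharide to Cd14, 1.05, 2.4 and 2.16 against 3.12, 10.8 and 4.97 FPKM. Bmal1 siRNA replicate 2 was the highest of the 6 libraries in 10 of 10 genes. Without it 4 genes were higher and the median was 0.35, with Hp at 0.66 and Lbp at 0.82; without Bmal1 siRNA TGFb replicate 1 all 10 were higher and the median was 0.96. With only the 6 TGFb libraries in the fit Lbp lost its call (adjusted p = 0.0576). Of 25 chemokine and inflammatory genes 10 fell and 4 rose (median -0.19). Beside Cxcl1, the adhesion molecule Vcam1 rose, at 33.1, 39.9 and 38.2 FPKM with scrambled and 63.1, 94 and 66.6 FPKM with Bmal1 siRNA (log2 0.97, SE 0.12, adjusted p = 8.85e-05).

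In metabolism and growth the differences were small and several followed the scaling. All genes tested had a median of 0.06, with 16% higher and 7.16% lower. Cholesterol synthesis genes rose in 8 of 25 and fell in 2 (median 0.12), with Dhcr7, the last enzyme of one branch, at 38.8, 37.4 and 37.3 FPKM with scrambled and 50.3, 49.5 and 50.5 FPKM with Bmal1 siRNA; with median-of-ratios scaling 3 rose and 3 fell, and 4 rose without scrambled TGFb replicate 1 or Bmal1 siRNA TGFb replicate 2 and 5 without replicate 3 of either group. Nuclear subunits of oxidative phosphorylation rose in 9 of 39 and fell in none (median 0.13); 3 rose with that scaling. Without scrambled TGFb replicate 1 or Bmal1 siRNA TGFb replicate 2 again 3 rose, without scrambled TGFb replicate 3 there were 5, and without Bmal1 siRNA TGFb replicate 1 there were 14. Lipid genes rose in 9 of 22 and fell in 1 (median 0.13), with 6 higher under that scaling and 5 without scrambled TGFb replicate 1. Among them Lpl rose by 0.62, while Plin2, the coat protein of lipid droplets, fell by 0.40. Of 21 NRF2 and glutathione genes 4 rose and 2 fell (2 and 2 with that scaling), the glutathione transferase Gstm1, one of a family of close copies, by 1.08. Unfolded protein response genes fell in 7 of 23 and rose in none (median -0.07), among them Ern1 by 0.41 and Xbp1 by 0.34. The falls numbered 9 with that scaling and 4 without scrambled TGFb replicate 2.

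Cell cycle genes rose in 7 of 16 for G1 (3 fell, median 0.17), 6 of 25 for S phase and 7 of 25 for mitosis (medians 0.11 and 0.14). Beside these counts stand 16% of all tested genes that rose and a median of 0.06. With median-of-ratios scaling 5 G1 genes rose, 2 S phase genes rose and 1 fell, and for mitosis none rose and 1 fell. Without Bmal1 siRNA TGFb replicate 2, 1 mitosis gene was higher (median 0.08), without any other single TGFb library 3 to 11, and the 6 S phase genes were 3 without that library or without scrambled TGFb replicate 1 or 3. Larger single changes were in the G1 regulators. Cyclin D1, Ccnd1, which shares 1100 exon bases with LTO1, read 7.5, 6.8 and 6.03 FPKM with scrambled and 10.1, 16.5 and 13.1 FPKM with Bmal1 siRNA (log2 0.85, SE 0.12, adjusted p = 0.000405). Cdkn2b, the CDK inhibitor p15 that TGFb induces, read 83.3, 96.7 and 93.5 FPKM with scrambled and 49.4, 40.5 and 51.6 FPKM with Bmal1 siRNA (log2 -0.94, SE 0.08, adjusted p = 7.12e-06). The groups were separate in both genes.

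With vehicle far fewer genes passed the threshold for the same siRNA: 74 of 11208 (0.66%), 33 higher and 41 lower. That count is imprecise: leaving out 1 library at a time gave 2 to 472, with 2 or 3 calls on removing any of 4 vehicle libraries (replicate 1 or 3 of the scrambled group, replicate 2 or 3 of the Bmal1 siRNA group). With the replicate numbers as a block in the fit 540 genes passed with vehicle. At an unadjusted p under 0.05 in limma the counts lay closer, with 2433 genes under vehicle and 4162 under TGFb. With vehicle all 3 Bmal1 siRNA libraries lay above the scrambled ones for 16.7% of genes and below them for 15.1%. Under TGFb these shares were 28.1% and 11%. No library is shared between the siRNA comparison under TGFb and the one under vehicle, but both take their spread from 1 fit of all 12 libraries. The vehicle count was 472 without Bmal1 siRNA TGFb replicate 2 and 12 without scrambled TGFb replicate 3. With only the 6 vehicle libraries in the fit it was 245. Across all tested genes the differences of the 2 comparisons correlated with Pearson's r = -0.02 and Spearman's rho = 0.07. That is a description over genes, which are not independent replicates. The effect of the siRNA differed between treatments for 1612 genes (14.4%), 993 (8.86%) with a higher and 619 (5.52%) with a lower effect under TGFb. They included 748 of the 1794 genes that rose and 506 of the 802 that fell under TGFb.

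**Figure D4:**
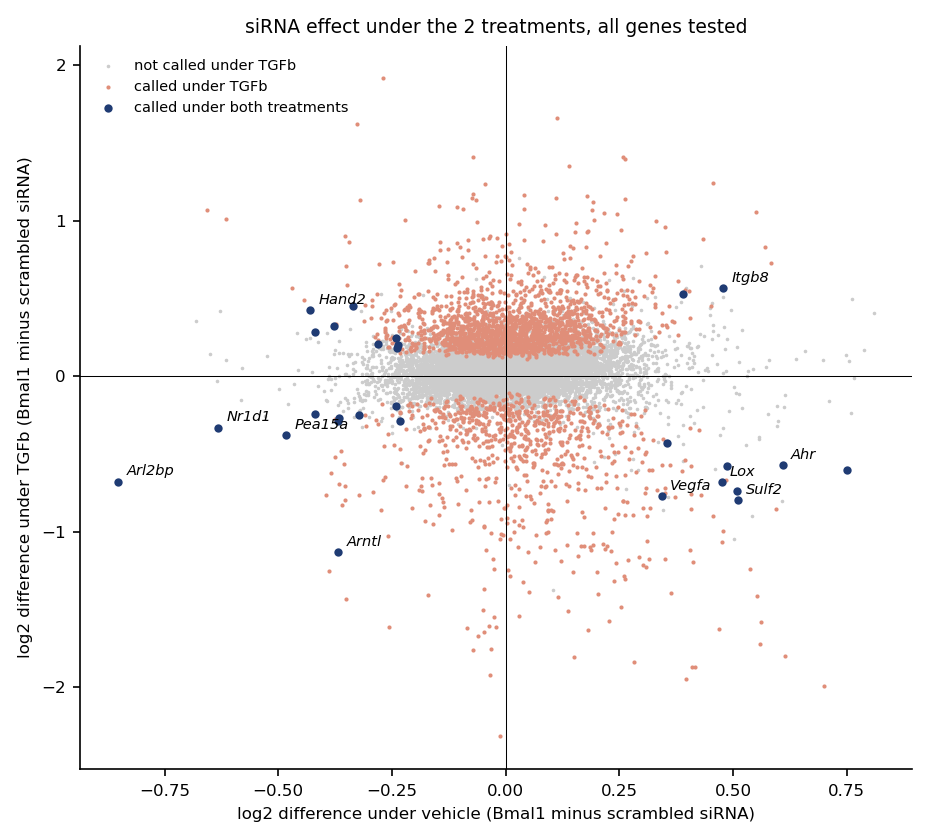
Difference by Bmal1 siRNA under vehicle (x axis, log2) against that under TGFb (y axis, log2) for the 11208 genes tested, one point per gene, with genes called under both treatments marked. The 40 largest differences under TGFb named in the text lie between -0.33 and 0.70 on the vehicle axis, and the correlation across genes is -0.02.

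With all libraries, 12 genes moved in the same direction under both treatments, 16.2% of the vehicle calls and 0.462% of the TGFb calls. Besides Arntl, Arl2bp, which binds the small GTPase Arl2, fell from 64.5, 64.4 and 64 to 37.4, 39.8 and 42.3 FPKM under TGFb and from 73.4, 73.9 and 71.2 to 41.1, 38.9 and 39.7 FPKM with vehicle. Pea15a, a death-effector-domain protein that shares 123 exon bases with Dcaf8, fell from 67.8, 67.7 and 68.7 to 51, 51.8 and 53.2 FPKM under TGFb and from 77.7, 75.7 and 73.8 to 53.1, 53.3 and 55.5 FPKM with vehicle. The Arl2bp and Pea15a calls under TGFb held in the same 24 settings, and the difference between treatments did not pass the threshold for either (adjusted p 0.102 and 0.245). Itgb8 and the guidance factor Sema3a were the 2 genes higher under both; Sema3a rose by 0.53 under TGFb and 0.39 with vehicle.

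A further 16 genes passed under both treatments in opposite directions, 8 each way, and for all 16 the difference between treatments passed as well. Vegfa, the vascular growth factor, fell from 68.5, 71.4 and 74.1 to 40.5, 42.6 and 40.9 FPKM under TGFb and rose from 26.4, 31.1 and 31.1 to 34.4, 38.9 and 39.9 FPKM with vehicle. Lox had 253 FPKM as its mean under TGFb with the Bmal1 siRNA and 245 FPKM with vehicle, against 405 and 177 FPKM with scrambled siRNA. Sulf2, a heparan sulfate sulfatase, and Ahr, the aryl hydrocarbon receptor, also fell under TGFb (by 0.80 and 0.58) and rose with vehicle (by 0.51 and 0.61). The stellate factor Hand2 did the reverse, with a rise of 0.42 under TGFb and a fall of 0.43 with vehicle, and its 3 Bmal1 siRNA libraries under TGFb were above all scrambled ones. The opposite calls rest on the vehicle calls, which moved with single libraries: none of the 16 was called under both treatments on removing any of the 4 vehicle libraries named above, or scrambled TGFb replicate 3. Of the 12 calls in the same direction, those of Arl2bp and Pea15a were the 2 that stayed without each of these 4 vehicle libraries. In Vegfa, Lox, Sulf2, Ahr and Hand2 the means of the treatments lay closer together with the Bmal1 siRNA than with the scrambled one. Those means are the ones behind the opposite calls by which these genes were picked, so this is not a separate result. Opposite calls do not fix it for every gene. Vat1, also among the 16, had means of 168 FPKM under TGFb and 193 FPKM with vehicle for scrambled siRNA. For Bmal1 siRNA its means were 194 and 164 FPKM.

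**Figure D5:**
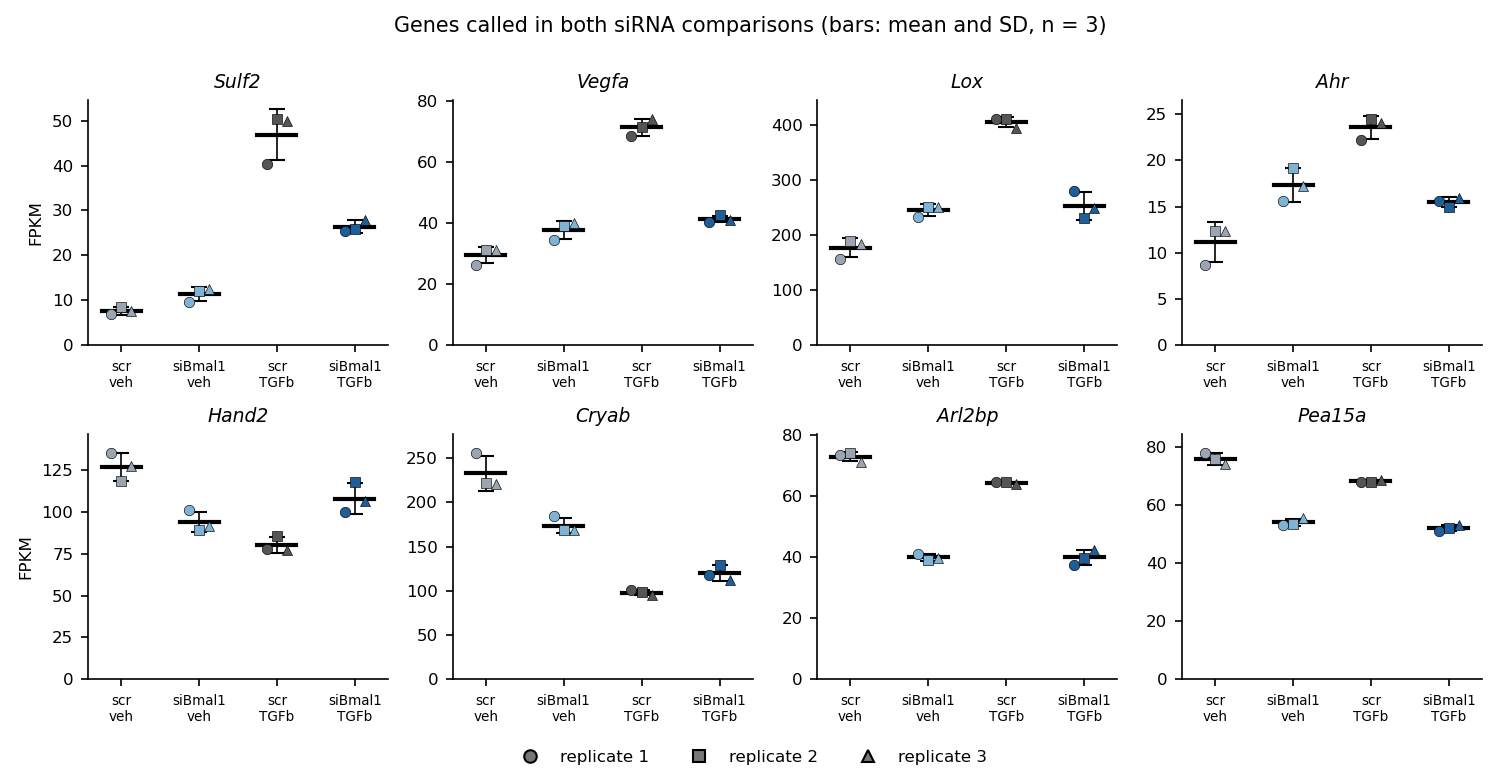
FPKM of 8 genes called under both treatments in each of the 12 libraries, grouped by siRNA and treatment; symbols stand for replicates 1 to 3, bars for the mean and error bars for the SD (n = 3). Sulf2, Vegfa, Lox and Ahr fall under TGFb and rise with vehicle, Hand2 and Cryab do the reverse, and Arl2bp and Pea15a fall under both.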

How the data were processed

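Total RNA of 12 EMS404 libraries was sequenced, 3 for each combination of siRNA and treatment. Per the labels' protocols, samples with an RNA integrity number below 6.0 were dropped, the extraction kit (1 of 2) depended on how much material there was, and BGI made the libraries. The authors deposited FPKM values for all libraries in 1 table; the submitters' processing notes list the build mm10 and the tools RSEM, DESeq2, Bowtie2 2.2.5 and HISAT2 2.0.4 with no roles. The kit of each library, the siRNA sequence, the annotation version and strand use were not stated in the labels.

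Of 16290 lines, 555 had no identifier (1.304% to 1.464% of a library's FPKM) and were left out, and 15 repeated identifiers were dropped, which left 15720. GENCODE M21 gave symbols for 15694. The 11208 genes whose average over the 12 libraries reached 0.5 FPKM were fitted on the log2(FPKM + 1) scale in R 4.3.3 (limma 3.58.1; group means, variance trend, two-sided). The fit had 8 residual degrees of freedom and 5 from the prior. A call is a Benjamini-Hochberg adjusted p under 0.05, and every adjusted p is from such a limma fit. On simulated data with 200 changed genes, 88.1% of those changed by a log2 of 0.5 and 100% of those changed by 1 or 2 were recovered for the siRNA effect under TGFb, and 3.52% of the calls were false. The simulated noise was independent for each gene and library, without a deviating library or a shift in scaling. These rates therefore do not give the share of false calls among the reported genes. Tables, promoters and figures used Python 3.11.15, SciPy 1.17.1 and pandas 2.3.3.

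The genes named were Arntl, any clock gene, the 20 largest rises and 20 largest falls, up to 5 called members per list, and up to 5 genes in each direction called under both treatments. The comparison, the lists and these rules were chosen with earlier results of these data known. Of 244 such genes 79 share exon bases with another annotated gene, 35 with a protein-coding one, and without strand use their reads cannot be told apart. Members of near-identical families (Apol9b, Oas1a, Gstm1) are uncertain. Promoters from RefSeq matched 179 of the 244. Some genes that meet these rules are left out of the text.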

Additional observations from a re-analysis of the deposited data

Results flagged for a closer look

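The effect of the Bmal1 siRNA differed between TGFb and vehicle for 1612 genes by limma's interaction test (adjusted p under 0.05). The values below are the log2 effect under TGFb minus the log2 effect with vehicle, and each passed that test. Groups of 3 were not tested for outlying samples.

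Among genes that fell under TGFb, the interferon response genes differed by -2.69 (Oasl2), -2.42 (Apol9b), -2.29 (Usp18), -2.28 (Oas1a), -2.28 (Rtp4), -2.12 (Isg15) and -2.09 (Irf7). Scrambled TGFb replicate 2 was the highest library in these genes; without it the differences were -2.06, -1.99, -1.56, -1.63, -1.71, -1.43 and -1.53 in the same order, and each passed the test. Targets of TGFb and genes of matrix and junctions differed by -2.34 (Krt14), -2.30 (Pmepa1), -1.96 (Mfap4), -1.89 (Pkp1), -1.60 (Lamb3) and -1.36 (Ccn2). The transcription factor genes Runx1 and Foxc2 differed by -1.61 and -1.57, and Crispld2, Trabd2b and Nt5e by -1.73, -1.69 and -1.60. Of the clock genes, Bhlhe40 differed by -1.78, Bhlhe41 by -0.93, Arntl by -0.77 and Ciart by -0.73.

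Among genes that rose under TGFb, secreted factors differed by 2.18 (Ptn), 1.55 (Cxcl1), 1.45 (Gdf10), 1.28 (Bmp2) and 1.21 (Bmp4). Matrix and plasma protein genes differed by 1.95 (Mgp), 1.19 (Masp1), 1.15 (Cp), 0.93 (Adamts9) and 0.88 (Htra3). The remaining ones were Rasl11a at 1.48, Npy4r and Pcp4l1 at 1.24 each, Mgst1 at 1.22, Aldh3a1 at 1.20, Clca3a1 at 1.12, Id2 at 1.04 and Elmo1 at 0.98. All of these belong to the 20 largest rises, in which Bmal1 siRNA TGFb replicate 2 was the farthest library from the scrambled TGFb group. Over those 20 genes replicates 1, 2 and 3 lay a median of 0.84, 1.70 and 1.12 above the scrambled TGFb mean.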

How the results depend on the processing

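The count of 2596 genes for the siRNA under TGFb was 1489 without replicate 2 of both TGFb groups, 1565 with only the groups compared, 4914 with array weights and 119 with a 2-fold minimum, and 1850 to 2921 without single libraries. The 74 genes under vehicle were 7 with no filter on low values, 245 with only the groups compared, 414 without replicate 2 of both TGFb groups, 1490 with array weights and 0 with a 2-fold minimum (2433 at an unadjusted p under 0.05 in limma), and 2 to 472 without single libraries. The 1612 genes that differed between treatments were 3723 with array weights, 146 with a 2-fold minimum and 991 to 1872 without single libraries. The deviations of same-numbered TGFb libraries from their group means correlated by r = 0.475, 0.299 and -0.051. Not every pair was above 0.1, so the numbers were not taken to pair the libraries. Same-numbered scrambled TGFb and Bmal1 siRNA vehicle libraries gave 0.419, 0.222 and 0.203, and scrambled TGFb and scrambled vehicle ones -0.024, -0.149 and 0.081. Whether the numbers mark shared batches was not tested. With the replicate block the counts were 2947 (2546 genes in common with the fit without it), 540 and 1893. The share of higher calls was 58.9% with equal totals and 53.3% with quantile normalization. Of 219 named genes called, 162 passed in all settings apart from the 2-fold minimum, and 44 of the named results lost a call with only the groups compared. Signs turned for values near 0 without a call: Per2 (-0.016, quantile normalization), Csnk1d (-0.054 to 0.0041 without single libraries), Por (-0.036 median-of-ratios, -0.0096 array weights, -0.0041 to 0.058 without single libraries) and Nampt (-0.047 median-of-ratios, -0.013 equal totals, -0.028 quantile, and -0.12 to 0.14 without single libraries). The median of the mesothelial list was -0.061 to 0.16 without single libraries (lowest without Bmal1 siRNA TGFb replicate 2) and that of the hepatocyte list -0.49 at a mean of at least 2 FPKM, where fewer genes were tested. The cause of the other shifts was not tested. FPKM carry no counting error, so the precision of genes with low values is unknown.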

Other observations

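Further lists showed few or mixed changes with the Bmal1 siRNA under TGFb, where 16% of all tested genes rose and 7.16% fell. Of 24 targets of ATF4 and amino acid supply genes 6 fell and 1 rose (median -0.14); without single TGFb libraries 3 to 11 fell (3 without scrambled replicate 2 or 3 or Bmal1 siRNA replicate 3, 11 without Bmal1 siRNA replicate 1), and the median was -0.07 without Bmal1 siRNA replicate 2. With median-of-ratios scaling 10 fell and none rose. In this list the pseudokinase gene Trib3 read 90, 101 and 95.7 FPKM with scrambled and 78, 66.7 and 77.1 FPKM with Bmal1 siRNA. Cytosolic ribosomal proteins rose in 1 of 36 (median 0.12), or in 8 without Bmal1 siRNA TGFb replicate 1 and with a median of 0.07 without replicate 2. Glycolysis and hypoxia genes fell in 2 of 24, namely Vegfa and Hk2. The median of that list was 0.02, or -0.09 without Bmal1 siRNA TGFb replicate 2 and 0.10 without scrambled TGFb replicate 2. Of 4 aryl hydrocarbon receptor pathway genes 2 fell, Ahr and Cyp1b1. Retinoid genes rose in 2 of 10 and fell in 1 (median 0.08), or rose in 1 and fell in 2 with median-of-ratios scaling. The BCL2 family rose in 4 of 13 and fell in none, or rose in 3 with median-of-ratios scaling. Its median was 0.09, or 0.002 without Bmal1 siRNA TGFb replicate 2. Lysosome and autophagy genes rose in 3 of 22 (median 0.06), or rose in 1 and fell in 2 with median-of-ratios scaling. Of 8 pleiotrophin, midkine and syndecan genes 2 rose and 3 fell (median 0.05).

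Markers of liver cell types also moved in both directions. Of 9 stellate markers tested 2 rose, Hand2 and Pdgfra, and 1 fell, Pdgfrb (median 0.04). Of 12 mesothelial and portal fibroblast markers 3 rose and 2 fell (median 0.11); Gata6, a zinc-finger factor of quiescent stellate and mesothelial cells, read 39.4, 41.3 and 41.6 FPKM with scrambled and 65.7, 92.1 and 71 FPKM with Bmal1 siRNA, without overlap. Of 3 hepatocyte markers tested 1 rose and 1 fell (median 0.42, or 0.12 without Bmal1 siRNA TGFb replicate 2). Ahsg, a plasma glycoprotein, rose from 0.08, 0.05 and 0.08 to 0.26, 2.17 and 1.17 FPKM, and Ass1, a urea cycle enzyme of hepatocytes, fell from 30, 34.1 and 36.3 to 13.7, 9.3 and 13.9 FPKM.

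In the 250 bases before the start, the Smad-binding letters CAGACA (searched on both strands) occurred in 20.9% of the genes that fell, 16.3% of those that rose and 15.5% of all tested genes with a promoter. The AP-1 letters TGANTCA (both strands) occurred in 9.09%, 5.61% and 5.09%. These shares are descriptions without a test.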
